A study of Mus musculus with 4 samples.

Results

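Sord, Khk, Tkfc and Aldh2 are 4 enzymes that make or use fructose and the aldehydes derived from it, out of 22078 genes in the count files. They were taken from a list of fructose pathway genes, and all 4 were measured. The cells came from mouse renal cortex and were profiled by Drop-seq, in which droplets give each captured mRNA a cell barcode and a unique molecular identifier (UMI). One library came from each of 2 Akita mice (C57BL/6-Ins2Akita/J, aged 116 and 119 days) and 2 Wild-type mice (aged 45 and 51 days). Akita mice carry a mutated insulin gene, Ins2, in the whole body and become diabetic without any drug. Age ran with genotype, so their effects cannot be told apart. The labels also speak of 8 mice per group housed for 24 weeks, which exceeds the ages given. All mice ate standard chow, and no sex is given in the labels used here.

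In the polyol pathway, aldose reductase (Akr1b3 in mice) reduces glucose to sorbitol, and sorbitol dehydrogenase (Sord) oxidises sorbitol to fructose. Ketohexokinase (Khk) phosphorylates fructose, and triokinase (Tkfc) phosphorylates the glyceraldehyde that arises further along the pathway. Aldh2 is the mitochondrial aldehyde dehydrogenase best known for oxidising acetaldehyde, and it can also act on glyceraldehyde. The kidney handles fructose mainly in the proximal tubule, the first part of the nephron, which runs through the segments S1, S2 and S3.

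On GRCm38, Sord lies on chromosome 2 from 122234749 to 122265340 on the plus strand, and Khk on chromosome 5 from 30921431 to 30931248 on the plus strand. Aldh2 lies on chromosome 5 from 121566027 to 121593824 on the minus strand. It overlaps Gm42879 on the opposite strand, which had 4 UMIs in all files, against 1900 for Aldh2. Tkfc lies on chromosome 19 from 10587791 to 10605654 on the minus strand, where it overlaps Cyb561a3 and Ddb1 on the opposite strand. Whether the counting used strand is not given in the sources used here, so reads in the overlaps cannot be told apart. Cyb561a3 had 1 UMI and Ddb1 had 309 UMIs in all files, against 387 for Tkfc. Counts are per gene and do not separate the isoforms of Khk.

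Because these genes had higher levels in proximal cells, the 250 bases before RefSeq's annotated start are shown for the 3 members with an entry in RefSeq's promoter table (GRCm38.p6), written 5′ to 3′ on the strand of the gene. Capitals mark a GC box (GGGCGG) or an E-box (CACGTG) on either strand, and no such motifs overlapped. The windows are chr2:122234589-122234838 for Sord, chr5:30921309-30921558 for Khk and chr19:10604259-10604508 for Tkfc. RefSeq's start is not the gene start given above: the Sord and Khk windows run past that start into the gene, and the Tkfc window lies inside the gene.
Sord: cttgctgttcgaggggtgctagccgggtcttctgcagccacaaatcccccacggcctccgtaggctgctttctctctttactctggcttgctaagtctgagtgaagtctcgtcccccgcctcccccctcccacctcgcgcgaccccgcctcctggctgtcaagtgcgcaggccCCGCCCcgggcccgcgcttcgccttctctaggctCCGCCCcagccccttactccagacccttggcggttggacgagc
Khk: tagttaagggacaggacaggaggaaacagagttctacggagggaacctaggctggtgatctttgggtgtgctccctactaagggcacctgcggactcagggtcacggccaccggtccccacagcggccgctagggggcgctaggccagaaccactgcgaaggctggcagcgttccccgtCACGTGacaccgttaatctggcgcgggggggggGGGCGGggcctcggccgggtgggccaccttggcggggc
Tkfc: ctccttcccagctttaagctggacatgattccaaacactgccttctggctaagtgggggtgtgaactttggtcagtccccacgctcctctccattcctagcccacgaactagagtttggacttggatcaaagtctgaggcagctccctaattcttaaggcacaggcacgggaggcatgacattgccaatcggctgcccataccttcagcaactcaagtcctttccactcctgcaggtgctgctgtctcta
Sord held 2 GC boxes, and Khk held 1 GC box and 1 E-box, whose first base lay 71 bases before RefSeq's start. Tkfc held neither motif. Of 32851 mouse promoters of this length, 32.7% held a GC box and 6.02% an E-box. The HNF4 core CAAAGTCCA and an HNF1 motif, searched on both strands, were in 0.384% and 0.00913% of these promoters and in none of the 3. A match describes these letters only.

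The files held between 1016719 and 1303453 UMIs each. Barcodes with at least 200 genes and at most 50% mitochondrial UMIs were retained as cells. Akita libraries kept 311 and 600 cells, against 564 and 441 in Wild-type libraries, with median depths between 746.5 and 835 UMIs. Akita replicate 2 had 884 barcodes in common with Wild-type replicate 1, whereas other pairs of libraries had 3 or 4. Shared barcodes made up 73.0% of the cells of Akita replicate 2 and 80.5% of those of Wild-type replicate 1. Most cells of these libraries were therefore counted in both genotypes, and results are also given with each such barcode kept in 1 file or left out. By marker genes, 1449 of 1916 cells were proximal tubule-like, 655 of them by a second ranking against cells named other than proximal tubule, and 452 distal nephron-like, made up of 189 loop of Henle-like, 93 distal convoluted tubule-like, 61 connecting tubule-like and 109 intercalated-like cells. The remaining 15 were macrophage or dendritic-like, and no cluster was named after principal cells, podocytes or endothelium. Of the loop of Henle-like cells, 55 formed a deep cluster (median 2541 UMIs) led by Pvalb, a listed distal convoluted tubule marker. Its top 50 genes held 6 loop of Henle and 5 distal convoluted tubule markers, so these 2 classes are not cleanly separated. Clusters were made without the 4 enzymes and the other listed pathway genes. Genes that follow the markers are still not independent of the clusters.

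All 4 enzymes were higher in proximal tubule-like than in distal nephron-like cells of the same libraries. Akita replicate 2 and Wild-type replicate 1 share most cells, so the 4 libraries are not 4 independent mice. The SEs and p-values below treat them as if they were. Levels are in CPM, UMIs of a gene per 1000000 UMIs of a class, and each molecule is counted once whatever its length. Of 4196 genes tested, 48.5% were called, 25.4% higher and 23.1% lower in proximal cells, so a call was common in this comparison.

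Sord, which makes fructose from sorbitol, had 992 and 731 CPM in Akita proximal cells, against 860 and 831 CPM in Wild-type proximal cells. Its distal level was 136 and 96.5 CPM for Akita, against 94.8 and 186 CPM for Wild-type. Every proximal value was above every distal value. The log2 fold change, proximal over distal, was 2.80 ± 0.17 (SE, 4 libraries, adjusted p 4.01e-08).

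Khk, the fructose kinase, had 672 and 735 CPM in Akita proximal cells, against 810 and 692 CPM in Wild-type proximal cells. Its distal level was 224 and 75.0 CPM for Akita, against 107 and 133 CPM for Wild-type. The distal value of Akita replicate 1 stood above the other 3, with a counting interval of 149 to 323 CPM. The log2 fold change was 2.55 ± 0.22 (SE, adjusted p 6.76e-07).

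Tkfc, the triokinase, was the scarcest, with 174 and 108 CPM in Akita proximal cells, against 146 and 109 CPM in Wild-type proximal cells. Distal cells held 1 and 0 UMIs of it in Akita, against 3 and 4 in Wild-type, 8 in all. A count of 0 in Akita replicate 2 allows up to 16.1 CPM by the limit of 3 counts, and 19.8 CPM by the exact Poisson interval. Its summed proximal level was 10.3 times its summed distal level, and the fitted log2 fold change was 3.36 ± 0.40 (SE, adjusted p 1.41e-05).

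Aldh2 had 735 and 542 CPM in Akita proximal cells, against 616 and 686 CPM in Wild-type proximal cells. Its distal level was 192 and 134 CPM for Akita, against 164 and 160 CPM for Wild-type, the narrowest range of the 4 enzymes in relation to its mean. It had the smallest log2 fold change of the 4 enzymes, 2.04 ± 0.14 (SE, adjusted p 7.14e-08).

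**Figure D1:**
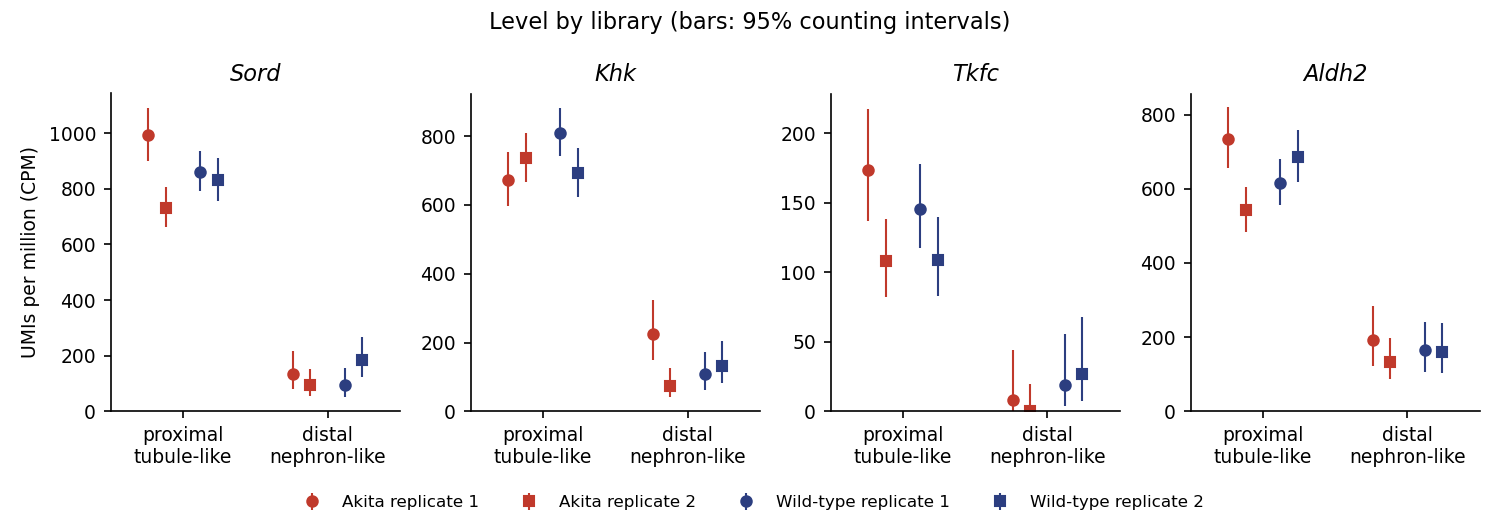
Level of each enzyme in CPM (vertical axis, starting at 0) in proximal tubule-like and distal nephron-like cells, 1 point per library, with exact 95% Poisson intervals that cover counting error only. In each panel the 4 proximal points lie above the 4 distal points, and the Akita and Wild-type points overlap in proximal cells; the Tkfc point of Akita replicate 2 in distal cells is a count of 0.

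When a shared barcode was kept in 1 file, the log2 fold changes were 2.70 for Sord, 2.24 for Khk, 2.93 for Tkfc and 1.88 for Aldh2. With shared barcodes left out they were 2.51, 2.02, 2.92 and 1.89 in the same order, and all 4 enzymes were called in both. Leaving them out kept only 5 distal cells with 2686 UMIs in Wild-type replicate 1, and 38 with 20085 UMIs in Akita replicate 2. The distal levels in that setting rested mainly on Akita replicate 1 and Wild-type replicate 2. At least 1 Sord UMI was seen in 53.8% of proximal tubule-like cells (exact binomial 95% interval 51.2% to 56.4%) and 13.7% of distal nephron-like cells (10.7% to 17.2%). These cells count shared barcodes in both files, so the intervals are too narrow. With each kept in 1 file, 1138 proximal and 343 distal cells remained. The shares were 46.0% and 13.1% for Khk, 14.98% and 1.77% for Tkfc, and 43.2% and 15.7% for Aldh2. Median depth was 792 UMIs in proximal and 793.5 UMIs in distal cells. After each cell was thinned to 300 UMIs, the Sord shares were 21.0% of 1420 proximal cells and 3.37% of 445 distal cells, with 29 and 7 shallower cells left out. All 4 enzymes had a UMI in 6.97% of 1449 proximal cells, against 0.221% of 452 distal cells.

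Transcripts known from the proximal tubule alone were also counted in distal cells. The distal level was 14.6% of the proximal level for Kap, an androgen-regulated proximal protein, 11.9% for the phosphate transporter Slc34a1 and 9.27% for the endocytic receptor Lrp2. It was 7.37% for Slc27a2, 6.79% for Gatm and 6.60% for Slc22a6. The corresponding shares were 14.9% for Sord, 17.3% for Khk, 9.75% for Tkfc and 25.01% for Aldh2. Tkfc lay within the range of these 6 transcripts, and Sord, Khk and Aldh2 above it. All 6 were markers used to name proximal clusters, and they were not kept out of the clustering. The 4 enzymes were kept out of both, so the shares are not compared on equal terms. The place of Sord and Khk varied: the Sord share was 13.7% in Akita replicate 1 and the Khk share 19.2% in Wild-type replicate 2, each below the Kap share of that library. The Tkfc share rested on 8 distal UMIs and was 4.59% and 0% for Akita, against 13.0% and 24.5% for Wild-type. It was below the Kap share in both Akita libraries and above it in both Wild-type libraries. When a shared barcode was kept in 1 file, the summed share of Kap was 17.7%, against 15.4% for Sord and 20.6% for Khk. Library by library, the Aldh2 share was 26.1% and 24.7% for Akita, against 26.6% and 23.3% for Wild-type. The Kap share was 21.2% and 9.21% for Akita, against 9.92% and 22.3% for Wild-type. The Aldh2 share was above the Kap share in each of the 4 libraries, by the least in Wild-type replicate 2. The part of free proximal RNA in the distal counts of the 4 enzymes was not tested.

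Among the distal classes, the order of levels could not be resolved at this depth. Aldh2 had 140 CPM in loop of Henle-like cells (exact Poisson 95% interval 103 to 186), 214 CPM in distal convoluted tubule-like cells (133 to 328), 167 CPM in connecting tubule-like cells (80.3 to 308) and 167 CPM in intercalated-like cells (102 to 258). Sord ranged from 50.2 CPM in connecting tubule-like cells (10.4 to 147) to 167 CPM in intercalated-like cells (102 to 258). Khk ranged from 67.0 CPM in connecting tubule-like cells (18.3 to 172) to 143 CPM in loop of Henle-like cells (106 to 189). Neighbouring values overlapped in their intervals for all 3 enzymes. Tkfc had 4 UMIs in loop of Henle-like, 3 in distal convoluted tubule-like and 1 in intercalated-like cells. It had 0 in 61 connecting tubule-like cells, which allows up to 50.2 CPM by the limit of 3 counts, and 61.8 CPM by the exact interval.

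**Figure D2:**
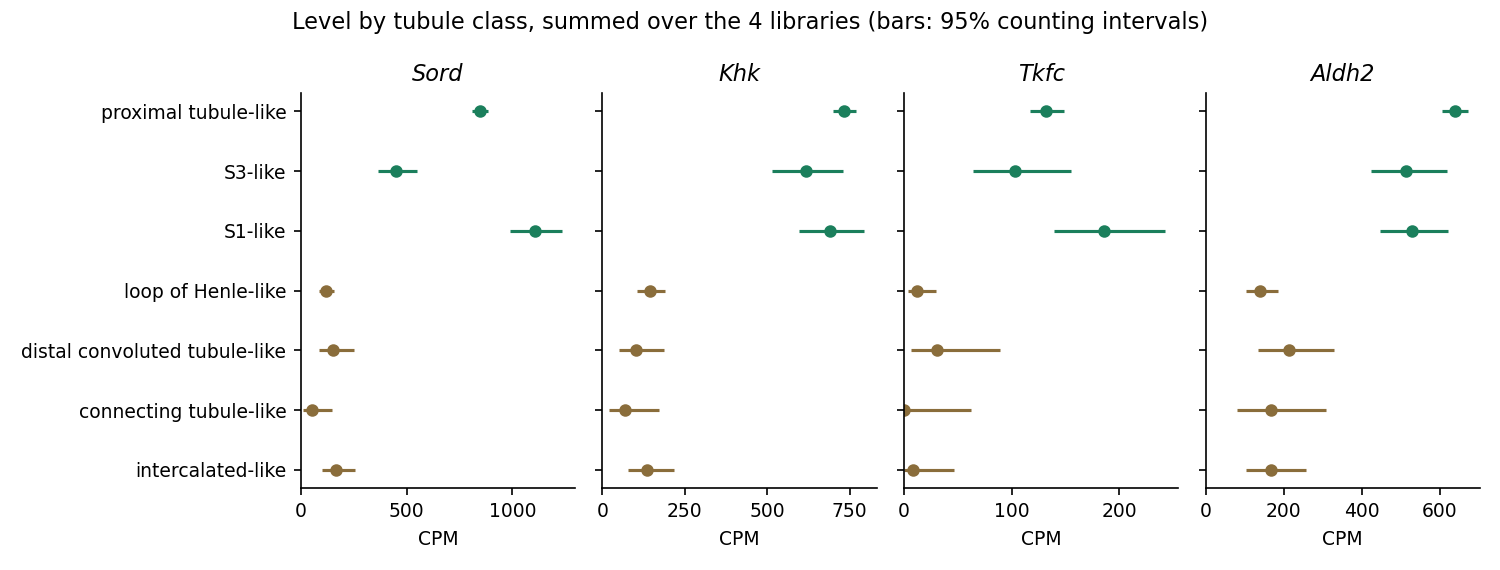
Level of each enzyme in CPM (horizontal axes starting at 0, with their own scale per panel) by class, summed over the 4 libraries, with exact 95% Poisson intervals; green marks proximal and brown distal classes, and S3-like and S1-like cells are part of the proximal tubule-like cells. Sord is lower in S3-like (448 CPM) than in S1-like cells (1106 CPM), while the intervals of the 4 distal classes overlap for each enzyme.

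Along the proximal tubule, Sord was lower in S3-like than in S1-like cells, whereas no difference passed the test for Khk or Aldh2. S1-like cells (341, in 2 clusters) were named from markers such as Slc5a12, Spp2 and Prodh2, and S3-like cells (129, in 1 cluster) from Slc22a7, Slc22a19 and Slc22a13. The other 979 proximal cells were left without a segment name. The test used the 3 libraries with at least 20 cells of both kinds, which leaves out Akita replicate 1 with 10 S3-like cells. Of the 3, Akita replicate 2 and Wild-type replicate 1 share most cells, so the libraries are not 3 independent mice. Of 985 genes tested, 36.4% were called, 18.2% higher and 18.3% lower in S3-like cells.

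Sord had 383 CPM in S3-like against 910 CPM in S1-like cells of Akita replicate 2, 435 against 1106 CPM in Wild-type replicate 1, and 602 against 1224 CPM in Wild-type replicate 2. Akita replicate 1, outside the test, had 5 Sord UMIs in its S3-like cells (497 CPM, interval 161 to 1161) against 1263 CPM in its S1-like cells. With the files as deposited, Sord was lower in S3-like cells in each of the 4 libraries. The log2 fold change, S3-like over S1-like, was −1.18 ± 0.21 (SE, adjusted p 2.12e-07). It was −1.02 when a shared barcode was kept in 1 file (adjusted p 0.0140), which left 2 libraries in the test. With that choice Wild-type replicate 1 had 5 S3-like cells, where Sord had 12 UMIs (1508 CPM, interval 779 to 2635) against 1213 CPM in its S1-like cells, and so was not lower there. With shared barcodes left out and libraries of at least 10 cells used, it was −1.12 and no longer passed the test (adjusted p 0.0539). S3-like cells were deeper, with a median of 1073 UMIs against 670 UMIs in S1-like cells. Kap took 80157 CPM in the S3-like cluster against 8704 and 6630 CPM in the 2 S1-like clusters.

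Khk had 537, 519 and 914 CPM in S3-like cells and 567, 756 and 718 CPM in S1-like cells of Akita replicate 2, Wild-type replicate 1 and Wild-type replicate 2. The log2 difference was −0.11 with an interval of −0.52 to 0.30 (95% interval from the SE, adjusted p 0.730). It was 0.43 when a shared barcode was kept in 1 file, the opposite direction. Aldh2 had 482, 449 and 650 CPM in S3-like cells and 432, 501 and 532 CPM in S1-like cells of the same libraries. The log2 difference was 0.10 with an interval of −0.34 to 0.54 (adjusted p 0.784). Tkfc did not pass the filter on low counts here. It had 22 UMIs in S3-like cells (103 CPM, interval 64.4 to 156) and 53 UMIs in S1-like cells (185 CPM, interval 139 to 243).

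Over the 9 proximal clusters, Sord ranged from 448 CPM in the S3-like cluster to 1387 CPM in a cluster of 134 cells without a segment name whose leading gene was Gatm. Khk ranged from 541 to 912 CPM, Tkfc from 87.7 to 206 CPM and Aldh2 from 393 to 783 CPM over the same clusters. Aldh2 was lowest in the S1-like cluster led by Slc5a12, at 393 CPM (interval 302 to 503), and had 702 CPM (563 to 865) in the S1-like cluster led by Spp2. The intervals of the 2 S1-like clusters did not overlap. They pool the libraries and count shared barcodes in both files, so they are too narrow, and the first cluster was picked as the lowest of the 9. No test across mice was made of this difference.

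Of the 14 listed polyol and fructose pathway genes other than the 4 enzymes, 6 were higher in proximal cells, 1 was lower, 2 did not pass and 5 were not tested. Of all 18, the 4 enzymes included, 13 were tested between proximal and distal cells. Of these, 10 were higher in proximal cells, 1 was lower and 2 did not pass. The median log2 fold change of the 13 was 2.37, against 0.02 over all genes tested. Glycerate kinase Glyctk (3.89), the sodium-coupled mannose and fructose transporter Slc5a10 (3.57), xylulokinase Xylb (2.66), the glucose and fructose transporter Slc2a2 (2.37), the aldehyde reductase Akr1a1 (2.27) and the xylulose reductase Dcxr (1.61) were higher in proximal cells on the same log2 scale. Hexokinase Hk1 was lower, with 0.905 ± 1.81 CPM in proximal and 100 ± 23.0 CPM in distal cells (SD, n = 4 libraries) and a log2 fold change of −6.25. Triose phosphate isomerase Tpi1 (0.13, adjusted p 0.440) and Adh5 (0.28, adjusted p 0.221) did not pass. Akr1b3, which makes sorbitol, was scarce in both, with 14.0 ± 2.90 CPM in proximal and 12.1 ± 9.96 CPM in distal cells, and was not tested for low counts. The fructose transporter Slc2a5 had 29.2 ± 18.8 CPM in proximal and 5.99 ± 12.0 CPM in distal cells and was not tested either.

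Between the segments, 10 of the 18 pathway genes were tested, with 5 lower in S3-like cells, 1 higher and 4 not passing. The median log2 fold change was −0.28, against −0.01 over all genes tested. Slc2a2 (−1.97), Sord (−1.18), Dcxr (−1.03), Tpi1 (−0.96) and Akr1a1 (−0.44) were lower and Adh5 (1.26) was higher. Across all lists, 10 genes other than the 4 enzymes were called between the segments. When a shared barcode was kept in 1 file, 7 of these were still tested and 0 were called. Without Wild-type replicate 1, only G6pc and Slc22a12 were called, and without Akita replicate 2 the called genes were Adh5, Aldh4a1, G6pc, Slc22a12 and Slc2a2.

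**Figure D3:**
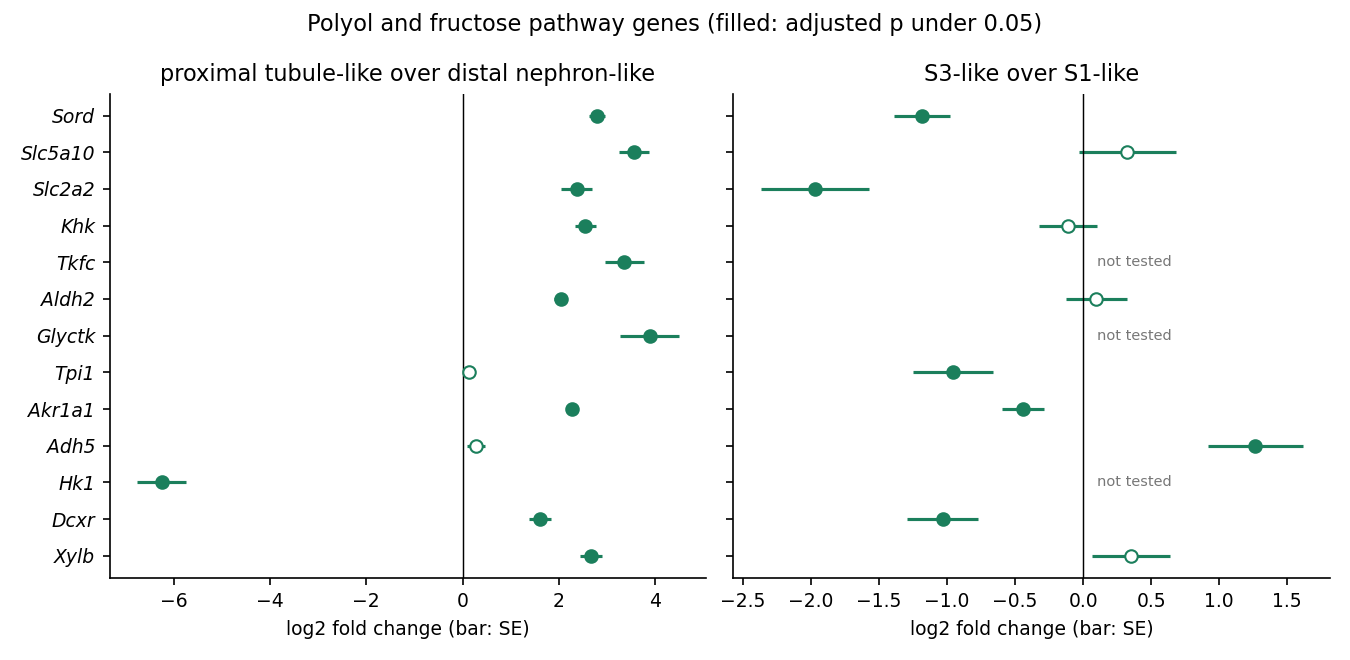
Log2 fold change (horizontal axes) of the pathway genes tested in either comparison, proximal tubule-like over distal nephron-like cells on the left and S3-like over S1-like cells on the right; bars are SE, and filled points have an adjusted p under 0.05. On the left 10 genes lie to the right of 0 with filled points and Hk1 alone lies to the left, at −6.25; on the right Slc2a2 (−1.97) and Sord (−1.18) are the lowest.

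Among aldehyde dehydrogenases, the family of Aldh2, 9 of 16 were tested between proximal and distal cells, with 7 higher, 1 lower and 1 not passing (median log2 fold change 1.82). Aldh8a1 (3.21), Aldh7a1 (2.31), Aldh9a1 (2.30), Aldh3a2 (1.82), Aldh4a1 (1.61) and Aldh6a1 (1.58) were higher in proximal cells, with Aldh2 at 2.04. The folate enzyme Aldh1l1 was lower, with 233 ± 15.2 CPM in proximal and 380 ± 48.9 CPM in distal cells (SD, n = 4) and a log2 fold change of −0.64, but it did not pass with no filter on low counts (−0.40, adjusted p 0.0525). Aldh9a1, at 771 ± 50.8 CPM in proximal cells, was the only other family member at the level of Aldh2 (645 ± 84.0 CPM); the next, Aldh6a1, had 316 ± 63.5 CPM. Between the segments, Aldh8a1 (1.10) and Aldh9a1 (0.51) were higher and Aldh4a1 (−1.32) was lower in S3-like cells, and 4 of 7 tested did not pass.

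Of 11 listed carbohydrate-responsive genes, a list that holds Khk and Tkfc, 7 were tested between proximal and distal cells, with 4 higher and 2 lower. G6pc, the last enzyme of glucose release, was higher (4.06), as was Mlxipl (2.54), which encodes the carbohydrate-responsive factor ChREBP. Txnip (−2.44) and the fatty acid elongase Elovl6 (−1.30) were lower. Of the osmolyte genes, the taurine transporter Slc6a6 was higher (2.99) and the inositol transporter Slc5a3 lower (−3.59) in proximal cells. Of the genes of purine breakdown, which fructose phosphorylation is known to feed, the urate transporter Slc22a12 was higher (4.05), the AMP deaminase Ampd3 lower (−3.29) and Nt5c2 (0.05) did not pass. Between the segments, G6pc was lower (−1.46) and Slc22a12 higher (0.90) in S3-like cells.

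For none of the 4 enzymes did a difference between Akita and Wild-type libraries pass the test. Over all retained cells edgeR called 0 of 7169 genes (0.0%), with 68 at an unadjusted p under 0.05. DESeq2 and limma-voom called 0 as well, with 7 and 57 genes at that unadjusted p. In proximal tubule-like cells edgeR called 0 of 6097 (0.0%), with 57 at that unadjusted p, and the other tools called 0, with 7 for DESeq2 and 54 for limma-voom. With 2 mice per group a missed call does not show that levels were alike. Akita replicate 2 and Wild-type replicate 1 share most cells, so many cells stand on both sides of this comparison. The SEs, p-values and intervals between genotypes treat the libraries as independent, and do not bound the differences between the mice. For edgeR, 68 of 7169 and 57 of 6097 genes are fewer than independent libraries without any difference would give at that p. Counting a shared barcode only once gave 199 of 6306 genes over all retained cells. The cause of this shortfall was not tested.

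In proximal tubule-like cells, Sord averaged 862 ± 184 CPM in Akita, against 846 ± 20.7 CPM in Wild-type libraries (SD, n = 2 each). The log2 fold change was 0.01 with an interval of −0.45 to 0.47 (95% interval from the SE). Khk averaged 703 ± 44.4 CPM in Akita, against 751 ± 83.4 CPM in Wild-type, a log2 fold change of −0.10 (−0.55 to 0.36). Tkfc averaged 141 ± 46.5 CPM in Akita, against 127 ± 26.2 CPM in Wild-type, a log2 fold change of 0.11 (−0.44 to 0.66). Aldh2 averaged 638 ± 136 CPM in Akita, against 651 ± 49.3 CPM in Wild-type, a log2 fold change of −0.04 (−0.49 to 0.41). The adjusted p was 1.00 for each. The libraries of the 2 genotypes overlapped for all 4 enzymes, while 22.7% of the genes tested had groups that did not overlap. For Sord, Tkfc and Aldh2 both the highest and the lowest proximal value came from an Akita library.

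Over all retained cells the log2 fold changes were −0.05 for Sord (−0.47 to 0.37), −0.13 for Khk (−0.54 to 0.28), −0.00 for Tkfc (−0.54 to 0.54) and −0.08 for Aldh2 (−0.49 to 0.33). When a shared barcode was kept in 1 file, Khk in proximal cells averaged 651 ± 29.7 CPM in Akita, against 785 ± 132 CPM in Wild-type. The groups did not overlap, but their nearest values had counting intervals that did. These were 672 CPM in Akita replicate 1 (597 to 754) and 692 CPM in Wild-type replicate 2 (624 to 765). The share of all genes without overlap was not computed for this choice. The Khk difference did not pass the test. With that choice the proximal log2 fold changes of Sord (−0.12) and Tkfc (−0.15) had the opposite sign to those from the files as deposited. Over all retained cells it gave −0.29 ± 0.27 for Sord, −0.40 ± 0.26 for Khk, −0.39 ± 0.39 for Tkfc and −0.33 ± 0.26 for Aldh2 (SE). None of these passed the test.

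**Figure D4:**
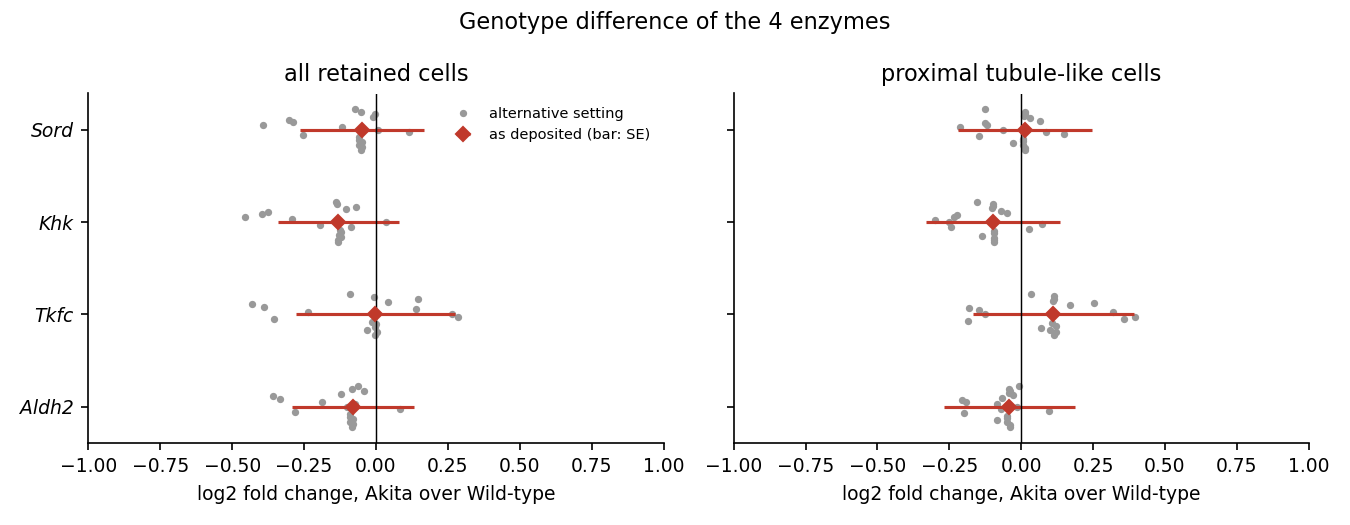
Log2 fold change, Akita over Wild-type (horizontal axes), of each enzyme over all retained cells and over proximal tubule-like cells; red diamonds are the files as deposited with their SE, and grey points are the alternative settings, leave-one-out fits included. The grey points lie between −0.46 and 0.40, on both sides of 0 for each enzyme.

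Whether the proximal-over-distal difference itself varied with genotype was tested as an interaction, chosen after the data were seen, and 0 of 4196 genes were called (0.0%), against 61 at an unadjusted p under 0.05. The interaction was 0.27 ± 0.41 for Sord, −0.30 ± 0.49 for Khk and −0.04 ± 0.34 for Aldh2 (log2, SE). For Tkfc it was 2.75 ± 1.21 (unadjusted p 0.0385, adjusted p 1.00), resting on the 8 distal UMIs. No other listed gene passed the test between genotypes. Of the pathway list, 0 of 13 tested in proximal cells were called, with a median log2 fold change of −0.04, against 0.00 over all genes tested. Glyctk had the largest difference among them, 66.2 ± 31.0 CPM in Akita, against 40.3 ± 7.07 CPM in Wild-type, with overlapping libraries. Of 13 aldehyde dehydrogenases 0 were called (median 0.02). Txnip had a log2 fold change of 0.81 over all retained cells (unadjusted p 0.0311, adjusted p 1.00) and 0.60 in proximal cells.

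The genes whose levels were most alike to each enzyme were found over 15 sums of class and library with at least 20 cells, as a description. The sums share libraries and contrast proximal with distal cells. For Sord they were the urate transporter Slc22a12 (r = 0.96), Lrp2 (0.96), Cyba (0.95), Nr1h4 (0.94) and Eci3 (0.94). For Khk they were Slc34a1 (0.96), Cyba (0.95), Slc5a10 (0.95), Slc22a12 (0.95) and Miox (0.95), which encodes the inositol oxygenase. For Aldh2 they were Glyat (0.98), Akr1a1 (0.97), Rida (0.95), Aass (0.95) and Sod1 (0.95). For Tkfc, with few UMIs per sum, they were Gnai2 (0.97), Itgb8 (0.95), Ahcy (0.94), Mettl7b (0.94) and Smlr1 (0.93).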

How the data were processed

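Values are raw counts, UMIs of each gene in each barcode as deposited. For tools, the submitters' processing notes give STAR 2.5.2b, UMI-tools 0.5.3 and featureCounts 1.6.0, with the build GRCm38. Drop-seq counts molecules near the 3′ end. Strings that were not barcodes were left out, 4 per file.

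Retained cells were clustered with scanpy 1.11.5 and leidenalg 0.10.2 (2000 variable genes, 30 components, 15 neighbours, resolution 1). A cluster was named after the type with the most markers, at least 3, among its top 50 genes against all other cells. The 4 clusters left unnamed by this (655 of the 1449 proximal cells) were ranked again against cells named other than proximal tubule, and then named proximal; an alternative without them was added after seeing the data. The pseudocount for ranking genes, 50 CPM, and the use of unscaled genes in clustering were set after clusters were seen. Doublets were not removed. Barcodes 1 base apart from another were kept as separate cells. They made up 98 of 311 and 96 of 600 cells in the Akita libraries, and 108 of 564 and 105 of 441 cells in the Wild-type libraries. Whether they were copies of the same cells was not tested.

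Counts were summed per library, or per library and class, since cells are not replicates. Sums were compared by the two-sided quasi-likelihood test of edgeR 4.0.16 with TMM factors and filterByExpr; p-values were adjusted over all genes tested (Benjamini-Hochberg, threshold 0.05), and library was a block in comparisons of classes. The fits were tested on simulated data drawn independently for each library, which does not cover the shared barcodes. DESeq2 1.42.0, limma 3.58.1 (voom) and the alternatives below were also run. A shared barcode "kept in 1 file" was assigned, as an assumption, to the library on whose side its UMI ratio fell. Intervals of levels are exact Poisson and of shares exact binomial, at 95%, and cover counting error only. Those pooled over the files as deposited count shared barcodes in both files, and so are too narrow.

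The members and lists were chosen with earlier results of these data known. Named were the members, up to 6 genes per list with at least 50 CPM, every listed gene past the threshold, and the 5 genes most alike to each member by Pearson correlation of log2(CPM + 10). Slc2a5, Akr1b3, Glyctk, Txnip and Nt5c2 in comparisons they did not pass were named after their values were seen. Lists were described by counts and medians only. One listed gene is not reported here and is left out of these counts.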

Additional observations from a re-analysis of the deposited data

Results flagged for a closer look

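Barcodes that were not retained as cells, 6066 over the 4 files, also held UMIs of the 4 enzymes, which the comparisons of retained cells did not use. An alternative over every deposited barcode did. Sord had 781 UMIs there, at 446 CPM (exact Poisson 95% interval 416 to 479), against 846 CPM in proximal tubule-like cells. Khk had 488 UMIs at 279 CPM, Tkfc had 84 UMIs at 48.0 CPM and Aldh2 had 391 UMIs at 223 CPM. The proximal transcripts Kap and Slc34a1 had 11930 and 1062 CPM in the same barcodes. No value of the 4 enzymes stood apart from the other 3 libraries in its log2 ratio of proximal to distal level: the gap divided by the range was between 0.392 for Tkfc and 0.714 for Sord, under Dixon's limit for 4 values.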

How the results depend on the processing

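The proximal-over-distal difference of the 4 enzymes kept its direction and its call under all 17 alternatives, which gave log2 fold changes of 2.51 to 3.05 for Sord, 2.02 to 2.93 for Khk, 2.92 to 4.02 for Tkfc and 1.79 to 2.29 for Aldh2. Between these classes 2034 of 4196 genes tested were called. It was 3193 of 20011 with no filter on low counts and 646 of 1375 with shared barcodes left out. With only the proximal clusters of the first ranking (794 cells, an alternative added after seeing the data), 1433 of 2620 genes were called. The 4 enzymes had 2.64, 2.41, 3.07 and 1.79 there in the same order. For S3-like against S1-like cells, 359 of 985 genes tested were called. When a library was left out, between 139 of 851 and 509 of 1278 were called. The 509 came without Wild-type replicate 2, which leaves Akita replicate 2 and Wild-type replicate 1, largely the same cells counted in both. When a shared barcode was kept in 1 file, 93 of 593 were called. Libraries of at least 10 cells were a choice made after seeing the data. With them, 102 of 550 were called when a shared barcode was kept in 1 file and 51 of 585 with shared barcodes left out. Shared barcodes left out with the limit of 20 cells could not be fitted, since 1 library remained. Sord between the segments lay between −1.23 and −1.02 under all 9 alternatives. Khk there had the opposite sign when a shared barcode was kept in 1 file (0.43, and 0.44 with at least 10 cells), with shared barcodes left out (0.31) and among the leave-outs, which ranged from −0.28 to 0.17.

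Between Akita and Wild-type, 1 gene was called with no filter on low counts over all cells and 1 in proximal cells, 0 to 23 over all cells and 0 to 12 in proximal cells when a library was left out (leaving out Akita replicate 2 gave 23 and 11, and leaving out Wild-type replicate 1 gave 14 and 12), and 12 in proximal cells when a shared barcode was kept in 1 file, with a replicate block. None of the 4 enzymes was called under any alternative, and adjusted p lay between 0.941 and 1.00. Their signs varied. Over all cells, leave-outs gave −0.25 to 0.12 for Sord, −0.29 to 0.035 for Khk, −0.36 to 0.28 for Tkfc and −0.28 to 0.085 for Aldh2, and Tkfc was also positive with DESeq2 (0.0040), a replicate block (0.0016), shared barcodes left out (0.14), at least 500 genes per cell (0.042) and at most 25% mitochondrial UMIs (0.14). In proximal cells, leave-outs gave −0.15 to 0.15 for Sord, −0.25 to 0.074 for Khk, −0.18 to 0.40 for Tkfc and −0.20 to 0.10 for Aldh2. Sord was negative there with no filter (−0.030), shared barcodes left out (−0.21) or kept in 1 file (−0.12, with the replicate block −0.13) or only the clusters of the first ranking (−0.13), and Tkfc with them kept in 1 file (−0.15, with the block −0.18).

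The replicate numbers pair no samples in the labels. The log2 CPM difference of replicate 1 from replicate 2 was taken for each gene within each genotype. Over genes, the Akita and Wild-type differences correlated at −0.25 over all cells and −0.23 in proximal cells. The correlations were 0.21 and 0.20 when a shared barcode was kept in 1 file. A replicate block called 0 genes in either comparison with the files as deposited, and so did a block on crossed numbers. After thinning to 300 UMIs, the shares of proximal and distal cells with a UMI were 21.0% and 3.37% for Sord, 17.7% and 3.60% for Khk and 16.1% and 2.47% for Aldh2, and 4.15% of proximal cells for Tkfc. The causes of these changes were not tested. Depth limits Tkfc most, with 8 UMIs in distal cells.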
